A study of Aspergillus nidulans with 12 samples.

Results

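In late cultures of the mould Aspergillus nidulans, 87 of 10681 measured genes were abundant in wild type and in a strain labelled rimO overexpression. The same genes were far lower in a strain labelled rimO deletion. They were picked from CPM, the count of a gene scaled to a common total for each library, averaged over the 2 cultures of each group. A gene was taken where its mean in both A1153 and Oegr at 48 h was at least 20 CPM and at least 16 times its highest mean among drim2.4 at 54 h and all strains at 17 h. Identifiers AN7804 to AN7828 were left out, a range that general knowledge, and no file used here, places in the sterigmatocystin gene cluster. Of its 24 measured genes, 18 met the numbers. All 6 group means entered the choice, so every late against early difference in A1153 or Oegr, and every difference between drim2.4 54 h and those late groups, is given below as a description without a test.

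RimO is named in the series title as a homolog of Rim15p, a kinase through which baker's yeast passes signals of nutrient shortage and enters quiescence. When glucose runs out, a filamentous fungus stops fast growth, breaks down parts of its own cell wall, and can turn to spore formation and to secondary metabolites, compounds not needed for growth. Asexual spores (conidia) of A. nidulans form on stalks called conidiophores, and brlA is the regulator that starts their construction. In submerged liquid culture conidiation is held back while glucose lasts.

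Poly(A) RNA was sequenced from 12 libraries in 6 groups of 2 cultures. The groups were drim2.4 at 54 h and 17 h (labelled rimO deletion), Oegr at 48 h and 17 h (labelled rimO overexpression), and the wild type A1153 at 48 h and 17 h. Every culture was liquid, at 37 °C, in minimal medium that started with 50 mM glucose and with nitrate at 10 mM, and no other allele, promoter or agent is given in the labels. The later harvests came 8 h after glucose had run out, which was 6 h later in drim2.4 because that strain took up glucose more slowly, so strain and hour cannot be told apart there. The labels call the cultures duplicates, so p-values measure the spread between these cultures. In bulk RNA, fewer cells of a type and less RNA per cell cannot be told apart.

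The depth of a library was 9269951 to 17891416 counts. Duplicate cultures differed by more than counting error, with a chi-square of 9.31 to 42.3 for each degree of freedom. AN7572 was taken for rimO from general knowledge, since no file names it. It stood at 55.9 and 51.0 CPM in drim2.4 54 h and at 54.7 and 59.7 CPM in drim2.4 17 h. Libraries labelled deletion thus still held reads of it, and the labels do not say which part of the gene was removed. Libraries labelled Oegr held 376 and 427 CPM in the late cultures, against 500 and 502 CPM in A1153. In the early cultures they held 536 and 462 CPM, against 86.1 and 92.2 CPM in A1153. The overexpression label thus matched the counts at 17 h and went against them at 48 h, and groups are called by their labels throughout.

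The 87 genes together took 0.0884% and 0.0918% of all counts in the 2 drim2.4 54 h libraries. They took 10.2% and 10.9% in Oegr 48 h and 8.40% and 8.80% in A1153 48 h. At 17 h they took 0.0153% to 0.0211% in the 6 libraries. The median gene had a mean of 1.46 CPM in drim2.4 54 h (range 0 to 201), of 239 CPM in Oegr 48 h (22.3 to 48816) and of 159 CPM in A1153 48 h (20.4 to 43452). In all 87 genes no late A1153 or Oegr culture lay below any of the other 8 cultures.

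**Figure D1:**
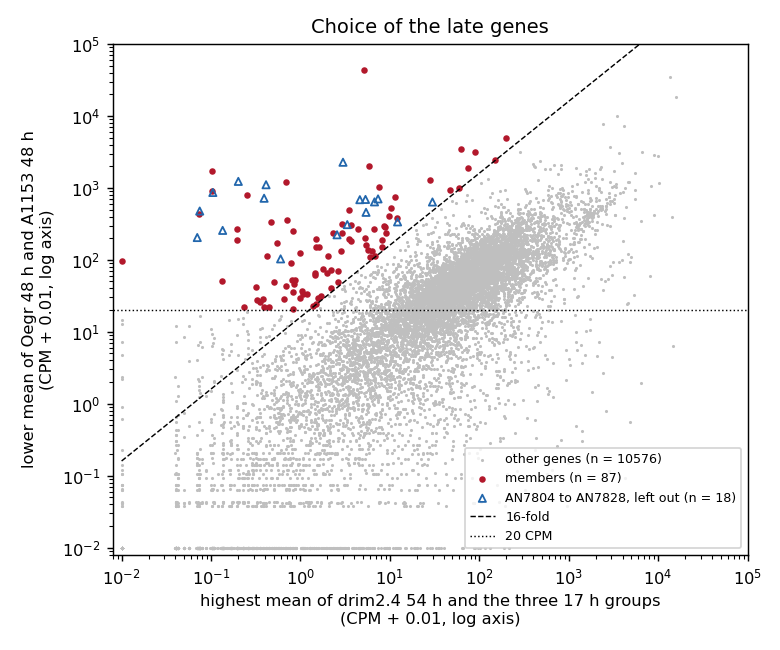
Each point is 1 gene, with the highest mean CPM among drim2.4 54 h and the 17 h groups on the x axis and the lower mean CPM of Oegr 48 h and A1153 48 h on the y axis (both log axes, 0.01 CPM added). The 87 genes chosen (red) lie above the 16-fold line and the 20 CPM line, and the 18 open triangles are the genes left out by identifier.

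The drim2.4 54 h mean was between 0.00369% and 6.20% of the A1153 48 h mean, with a median of 1.32%. It was under 1% in 34 genes and under 0.1% in 12. In 35 genes the drim2.4 54 h mean was at most 1 CPM. AN12089 had no count in either drim2.4 54 h library, which allows up to 0.0935 CPM over the group. Among the groups in which the genes were low, drim2.4 54 h was the highest for 63 genes, Oegr 17 h for 16, A1153 17 h for 5 and drim2.4 17 h for 3.

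**Figure D2:**
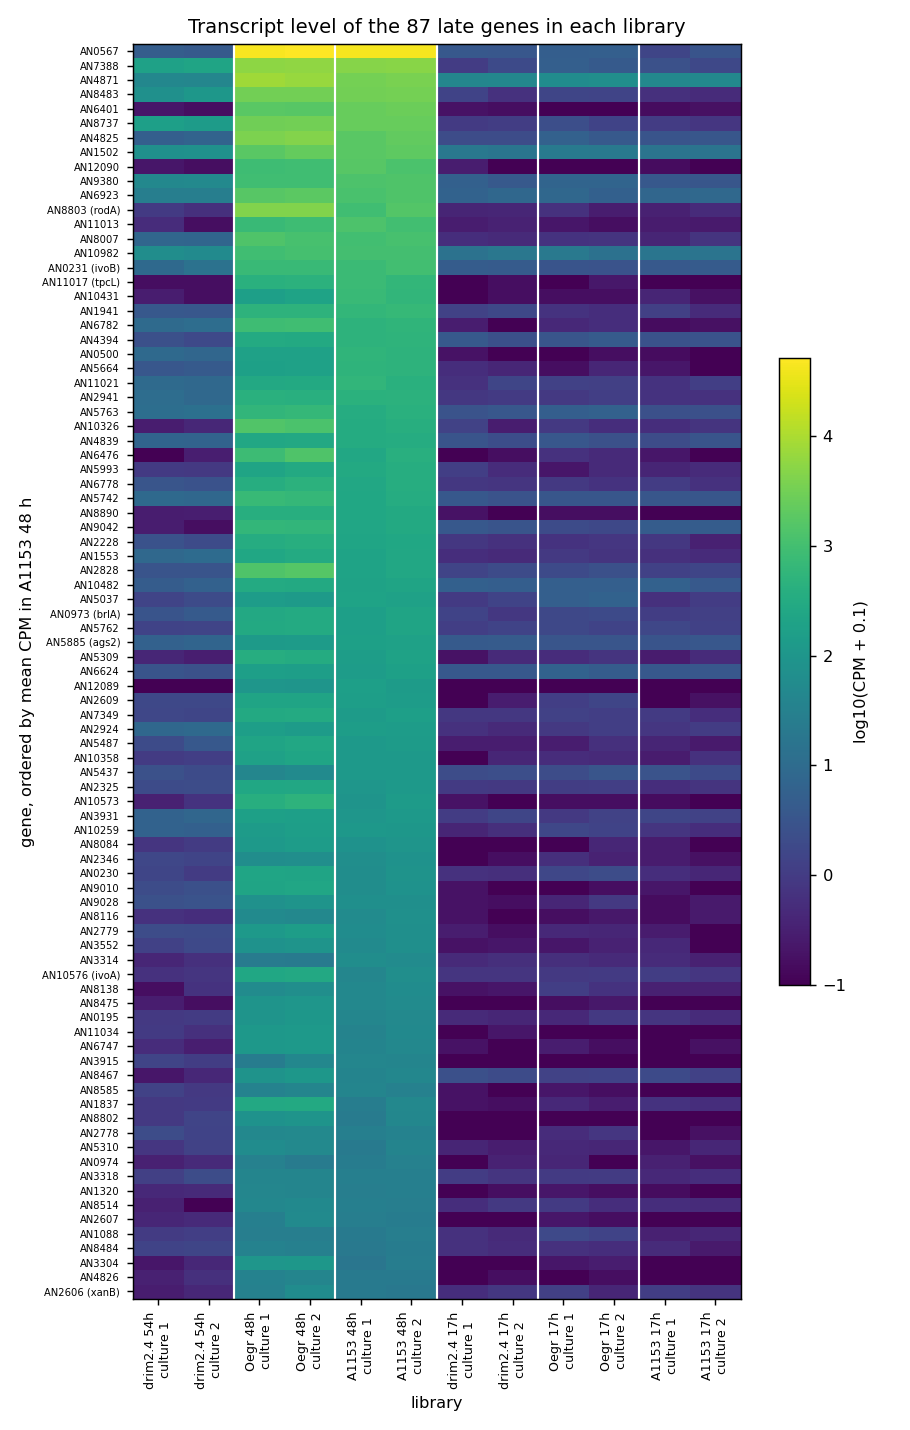
Rows are the 87 genes, columns the 12 libraries, and colour is log10 of CPM + 0.1, to be compared along a row since CPM carries no correction for gene length. The 4 late Oegr and A1153 columns are bright in every row, and the drim2.4 54 h columns stay darker, with a median of 1.46 CPM over the genes.

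Near the threshold the genes form a continuum. The members nearest to it were AN8737, at 16.1 times its highest low mean (2446 against 152 CPM), AN3931 at 16.2 times and AN1088 at 16.6 times. Just outside lay AN10789 at 15.9 times, AN11103 at 15.3 times and AN9458 at 14.3 times. AN11103 and AN1088 were held there by Oegr 17 h, and the other 4 by drim2.4 54 h.

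Of 12 measured regulators of asexual development, brlA (AN0973) was the 1 member. Its level was 2.95 and 4.08 CPM in drim2.4 54 h, 283 and 304 CPM in Oegr 48 h and 170 and 219 CPM in A1153 48 h. At 17 h it was 1.31 and 0.736 CPM in drim2.4, 1.63 and 1.86 CPM in Oegr and 0.993 and 1.10 CPM in A1153. The drim2.4 54 h cultures were above all 17 h cultures and far below the other late ones, with a mean at 1.80% of that of A1153 48 h. The regulators that act after brlA, abaA (AN0422) and wetA (AN1937), did not reach a mean of 20 CPM in any group. The mean of abaA was 2.73 CPM in drim2.4 54 h, 19.9 CPM in Oegr 48 h and 5.85 CPM in A1153 48 h. That of wetA was 0.752 CPM in drim2.4 54 h, 8.24 CPM in Oegr 48 h and 3.88 CPM in A1153 48 h. Regulators that act before or beside brlA were present in all groups and differed in direction. Of the 12 regulators, 9 had a lower mean in drim2.4 54 h than in A1153 48 h, brlA, abaA and wetA among them. Of these 9, fluG (AN4819) had 48.8 CPM in drim2.4 54 h and 138 CPM in A1153 48 h, and medA (AN6230) 231 and 437 CPM. For flbA (AN5893) the means were 94.0 and 119 CPM, and for vosA (AN1959) 21.5 and 23.8 CPM. The mean was lower in drim2.4 54 h than in A1153 48 h for flbC (AN2421), at 171 CPM in drim2.4 54 h, 362 CPM in Oegr 48 h and 537 CPM in A1153 48 h, and for the morphology regulator stuA (AN5836), at 366 CPM in drim2.4 54 h, 1127 CPM in Oegr 48 h and 870 CPM in A1153 48 h. It was higher for flbD (AN0279), at 110 CPM in drim2.4 54 h, 62.8 CPM in Oegr 48 h and 38.8 CPM in A1153 48 h. For flbE (AN0721) and flbB (AN7542) it was also higher, at 83.3 and 88.3 CPM in drim2.4 54 h, against 51.5 and 58.9 CPM in A1153 48 h.

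Of 9 measured genes listed as conidium and conidiophore markers, 5 were members. The spore-wall hydrophobin gene rodA (AN8803) had 0.842 and 0.518 CPM in drim2.4 54 h, 4199 and 4283 CPM in Oegr 48 h and 906 and 1530.3 CPM in A1153 48 h. At 17 h it lay between 0.192 and 0.543 CPM in the 6 libraries. The deletion-labelled late cultures thus stood at 0.0558% of the A1153 48 h mean, and both Oegr 48 h cultures were above both A1153 48 h cultures.

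AN6401, also on that list, had the lowest share of all members. It had 0.120 and 0.0647 CPM in drim2.4 54 h (2 and 1 counts), 1762 and 1688 CPM in Oegr 48 h and 2375 and 2638 CPM in A1153 48 h. Its order among the late strains was the opposite of that of rodA, with both Oegr cultures below both A1153 cultures. AN1837 had 0.782 and 0.841 CPM in drim2.4 54 h, 276 and 299 CPM in Oegr 48 h and 25.8 and 45.4 CPM in A1153 48 h, with the lower Oegr culture above the higher A1153 culture.

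The ivo genes make the brown pigment of the conidiophore, and ivoB encodes a phenol oxidase. For ivoA (AN10576) the values were 0.541 and 0.647 CPM in drim2.4 54 h, 254 and 276 CPM in Oegr 48 h and 41.6 and 64.8 CPM in A1153 48 h. For ivoB (AN0231) they were 9.02 and 14.0 CPM in drim2.4 54 h, 757 and 729 CPM in Oegr 48 h and 797 and 961 CPM in A1153 48 h. Both were low in the deletion-labelled cultures, and only for ivoA did both Oegr 48 h cultures lie above both A1153 48 h cultures.

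The other markers of conidia and conidiophores were mostly lower in drim2.4 54 h. Each of dewA, yA, abaA, wetA and AN8209 had a lower mean there than in Oegr 48 h and in A1153 48 h. AN7539 was lower there than in A1153 48 h only, and AN0940 had no count in any group. Over dewA, yA, abaA, wetA and AN8209, the last of which is in this separate set of 8 markers but was left out of the list of 9 because the reference names it pksP, the summed level was 14.2 to 14.4 CPM in drim2.4 54 h, 80.1 to 96.0 CPM in Oegr 48 h, 46.7 to 50.0 CPM in A1153 48 h and 13.5 to 16.5 CPM at 17 h. None of the 8 markers in the whole set was at 0 in a group, and the sum over all 8 was 27.0 to 33.0 CPM in drim2.4 54 h, 5320 to 5412 CPM in Oegr 48 h and 1919 to 2761 CPM in A1153 48 h. In Oegr 48 h and A1153 48 h most of the sum over all 8 came from rodA, ivoB and brlA. The rule chose these members to be low in drim2.4 54 h. The laccase gene of green spore pigment, yA (AN6635), averaged 7.02 CPM in drim2.4 54 h, 43.4 CPM in Oegr 48 h and 19.1 CPM in A1153 48 h. AN7539, on the list of 9 and not in the set of 8, averaged 208 CPM in drim2.4 54 h, 16.9 CPM in Oegr 48 h and 257 CPM in A1153 48 h, and at 17 h 364 CPM in drim2.4, 1177 CPM in Oegr and 449 CPM in A1153. It was thus low in Oegr 48 h and not in drim2.4 54 h. A part of such cells in the other late genes' values was not tested.

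**Figure D3:**
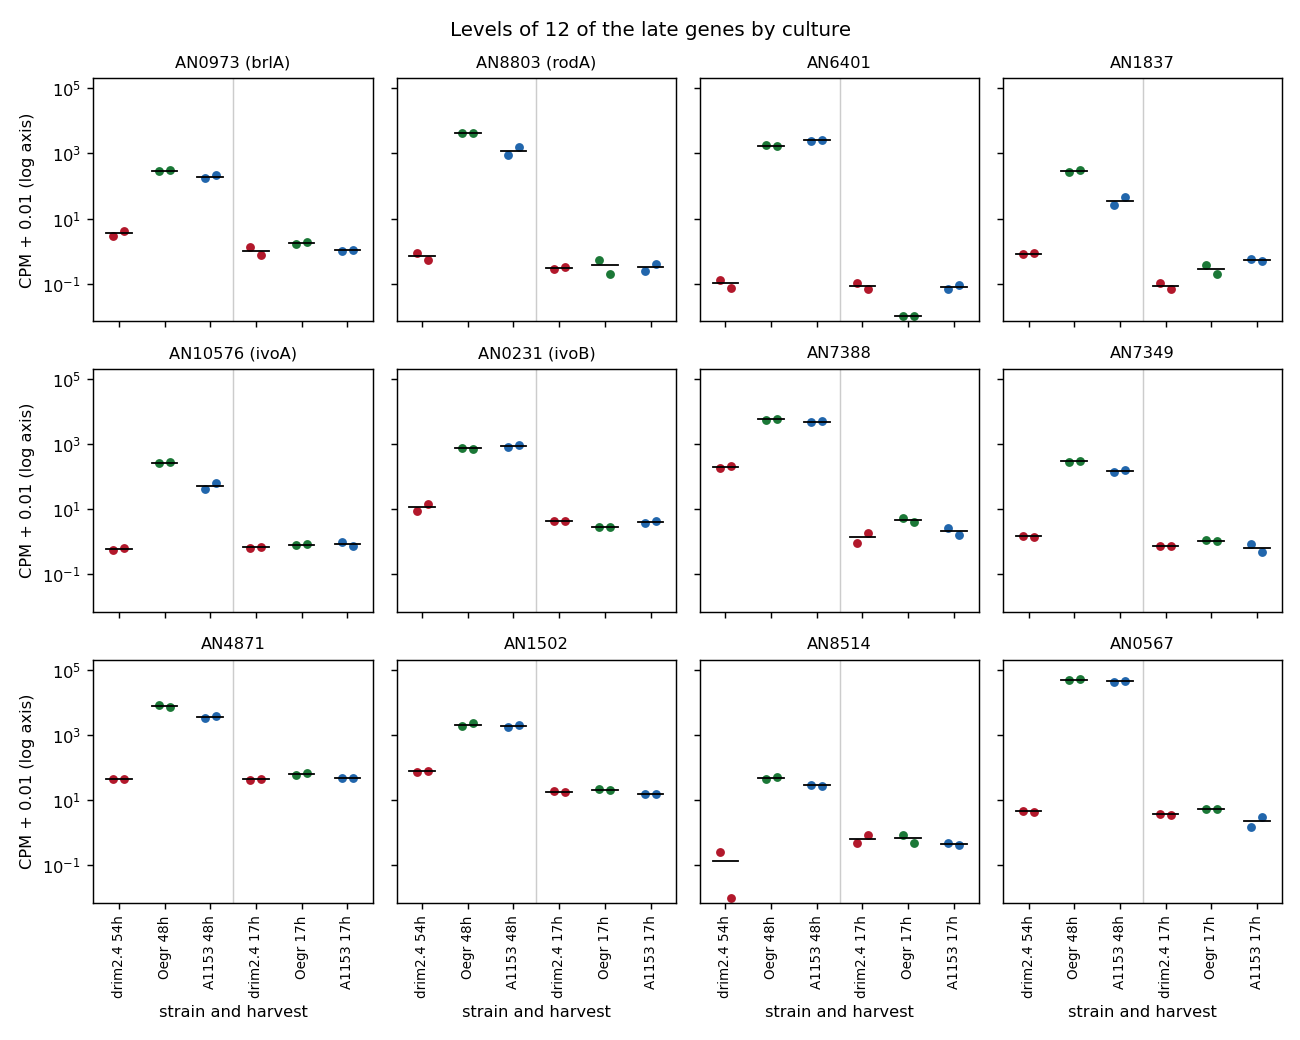
Each panel is 1 gene, each point 1 culture and each bar the mean of 2, with CPM + 0.01 on a log axis. The order within a panel is drim2.4, Oegr and A1153 at the late harvest, then the same strains at 17 h. In panels such as brlA, rodA, AN1837, ivoB, AN7388, AN1502 and AN0567 both drim2.4 54 h cultures are above both drim2.4 17 h cultures, and in AN4871 they overlap.

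Of 11 measured genes on the sexual development list, AN7388 and AN7349 were members. AN7388 had 188 and 214 CPM in drim2.4 54 h, 5519 and 5929 CPM in Oegr 48 h and 4843 and 4987 CPM in A1153 48 h. At 17 h it had at most 5.31 CPM, so the deletion-labelled strain reached an intermediate level at 54 h. AN7349 had 1.50 and 1.42 CPM in drim2.4 54 h, 289 and 307 CPM in Oegr 48 h and 135 and 165 CPM in A1153 48 h. The non-members of this list included genes with more reads in the deletion-labelled strain, as nsdD (AN3152), a GATA factor needed for sexual development, which averaged 339 CPM in drim2.4 54 h, 202 CPM in Oegr 48 h and 134 CPM in A1153 48 h. The 4 markers of the cleistothecium (sexual fruiting body) and its Huelle cells, which include both members, summed to 1113 to 1170.2 CPM in drim2.4 54 h, 7435 to 7705 CPM in Oegr 48 h and 6133 to 6407 CPM in A1153 48 h. The 2 of them that are no members, AN1848 and nsdD, summed to 897 to 981 CPM in drim2.4 54 h, 1469 to 1627 CPM in Oegr 48 h and 1155 to 1255 CPM in A1153 48 h, so the wide gap of the whole sum is that of the members, which the rule chose to be low in drim2.4 54 h.

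Of 5 measured autolytic hydrolase genes, AN4871 and AN1502 were members. AN4871 differed from most members in that it was already transcribed at 17 h. It had 44.2 and 42.8 CPM in drim2.4 54 h, 7978 and 6934 CPM in Oegr 48 h and 3266 and 3622 CPM in A1153 48 h, and 41.5 to 65.6 CPM in the 17 h libraries. AN1502 had 73.1 and 77.1 CPM in drim2.4 54 h, 1821 and 2262 CPM in Oegr 48 h and 1741 and 2025 CPM in A1153 48 h, with 15.3 to 21.3 CPM at 17 h. The deletion-labelled late cultures were within the 17 h range for AN4871 and above it for AN1502. The list's other genes, AN0472, AN1414 and AN5558, missed the rule and differed from each other. AN0472 had 104 CPM in drim2.4 54 h, 3111 CPM in Oegr 48 h and 1152 CPM in A1153 48 h, which was 11.1 times its highest low mean. AN1414 had 154 CPM in drim2.4 54 h, 278 CPM in Oegr 48 h and 154 CPM in A1153 48 h. AN5558 had 582 CPM in drim2.4 54 h, 561 CPM in Oegr 48 h and 125 CPM in A1153 48 h.

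No measured gene of the austinol (17), monodictyphenone (12), aspyridone (10), cichorine (9), asperfuranone (8), emericellamide (5), orsellinic acid (5) or penicillin (3) lists was a member, nor was any of 8 regulators of secondary metabolism. Among these regulators AN7820 met the numbers and was left out by identifier. It had 2.56 CPM in drim2.4 54 h, 304 CPM in Oegr 48 h and 223 CPM in A1153 48 h. On the austinol, monodictyphenone, asperfuranone and penicillin lists 0 genes reached 20 CPM in both A1153 and Oegr at 48 h. Some of these genes passed the 16-fold part and others did not. Austinol gene AN9253 passed it with 0.0902 CPM in drim2.4 54 h, 81.5 CPM in Oegr 48 h and 11.1 CPM in A1153 48 h. On the terrequinone list, AN8514 was a member and its neighbour AN8513 missed only the 20 CPM minimum, with 15.4 CPM in A1153 48 h. AN8514 had 0.241 and 0 CPM in drim2.4 54 h, 43.4 and 51.2 CPM in Oegr 48 h and 29.4 and 27.5 CPM in A1153 48 h. Members with a symbol tied to metabolites were tpcL (AN11017), named after a gene of trypacidin synthesis in A. fumigatus, and xanB (AN2606), named after a gene of xanthocillin synthesis in A. fumigatus. For tpcL the values were 0.0602 and 0.0647 CPM in drim2.4 54 h (1 count each), 418 and 457 CPM in Oegr 48 h and 789 and 616 CPM in A1153 48 h. For xanB they were 0.180 and 0.324 CPM in drim2.4 54 h, 31.6 and 60.9 CPM in Oegr 48 h and 22.0 and 18.9 CPM in A1153 48 h. The cell-wall gene ags2 (AN5885), an alpha-glucan synthase, was lower in Oegr 48 h (132 and 134 CPM) than in A1153 48 h (175 and 186 CPM) and had 5.90 and 6.86 CPM in drim2.4 54 h.

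The symbol tpcL needs care, because AN11017 and AN11013 sit together between AN7812 and AN7814 in the gene order of the reference, and AN11021 sits between AN7816 and AN7817, whose annotated interval it overlaps. These 3 members thus lie inside the range the rule left out by number, and reads in the overlap of AN11021 and AN7817 may belong to either. AN11013 had 0.421 and 0.0647 CPM in drim2.4 54 h, 755 and 857 CPM in Oegr 48 h and 1330.3 and 974 CPM in A1153 48 h. AN11021 had 9.20 and 8.54 CPM in drim2.4 54 h, 280 and 288 CPM in Oegr 48 h and 563 and 427 CPM in A1153 48 h. All 3 were lower in both Oegr cultures than in both A1153 cultures at 48 h. Without them 84 genes remain.

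AN0567, which the reference table does not name, held a large part of the members' reads. It had 4.69 and 4.14 CPM in drim2.4 54 h, 46053 and 51579.8 CPM in Oegr 48 h and 42864 and 44041 CPM in A1153 48 h. That was 4.61% and 5.16% of all counts in the Oegr 48 h libraries and 4.29% and 4.40% in A1153 48 h. The authors' deposited table gives 1 value of log2 RPKM (reads scaled to gene length and library total) for a group, which allows levels of different genes to be set side by side. In that table AN0567 had a log2 RPKM of 13.06 in A1153 48 h and ranked 4 among all genes, followed among the members by AN8483 at 12.06 (rank 10), AN6401 at 11.51 (rank 17), AN4871 at 11.33 (rank 24), AN7388 at 11.17 (rank 28) and rodA at 10.82 (rank 39). The median log2 RPKM in A1153 48 h was 6.66 over the members and 3.85 over all genes in that deposited table. The rule asked for at least 20 CPM in A1153 48 h, so a higher median of the members was largely set by the choice.

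The other abundant members without a name varied in what was left in the deletion-labelled strain. AN8483 had 74.2 and 105 CPM in drim2.4 54 h, 3139 and 3127 CPM in Oegr 48 h and 3144 and 3338 CPM in A1153 48 h. AN8737 had 166 and 137 CPM in drim2.4 54 h, 3037 and 3074 CPM in Oegr 48 h and 2473 and 2419.6 CPM in A1153 48 h. AN4825 had 5.17 and 6.54 CPM in drim2.4 54 h, 3858 and 4420.0 CPM in Oegr 48 h and 1828 and 2169 CPM in A1153 48 h. AN8737 kept 6.20% of its A1153 48 h mean, the most of any member, and AN4825 kept 0.293%.

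The libraries labelled Oegr were compared with A1153 at 48 h to ask whether the strains in which these genes are abundant also differ from each other. The rule set both groups on the same side, so it does not fix the direction. Most members differed, and more often upward: with edgeR's quasi-likelihood test and Benjamini-Hochberg adjustment over 9670 tested genes, 49 of 87 (56.3%) were higher in Oegr, where 23% of all genes tested were. Another 20 (23.0%) were lower, against 18.1% of all genes, and 18 were not called. In either direction 41.1% of all genes were called. The rule took only genes of at least 20 CPM in both groups, while the genes tested include lower ones, in which a difference is harder to call. Shares over genes of that level alone were not computed, which also limits the shares by culture below. The median log2 change was 0.45 over the members and 0.06 over all genes tested. At 48 h Oegr did not hold more AN7572 reads than A1153, so the direction is one between labelled strains.

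Both Oegr 48 h cultures were above both A1153 48 h cultures in 54 members (62.1%) and below both in 23 (26.4%), where 42.4% and 24.4% of all genes were. Without AN11013, AN11017 and AN11021, 49 members were higher and 17 lower. By size, 20 of those called rose by at least 1 on the log2 scale, 4 of them by at least 2, and 5 fell by at least 1.

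The conidiation genes went in both directions in this comparison. AN1837 rose most of all members, with a log2 change of 2.96 ± 0.17 (SE, adjusted p = 1.19e-08). It was followed among these genes by ivoA at 2.26 ± 0.14 (adjusted p = 2.22e-08), rodA at 1.75 ± 0.18 (adjusted p = 2.56e-06) and brlA at 0.53 ± 0.11 (adjusted p = 0.00148). AN6401 fell by 0.60 ± 0.08 (adjusted p = 7.24e-05), and ivoB had a log2 change of -0.30 ± 0.12 (adjusted p = 0.0715). The lower level of ivoB was called in a fit of only these groups (adjusted p = 0.0294), without A1153 48 h replicate 1 (adjusted p = 0.0459) and without drim2.4 54 h replicate 1 or 2 (adjusted p = 0.0158 and 0.0232). Over the whole list of conidium and conidiophore markers, 8 genes were tested, of which 4 were higher, 2 lower and 2 not called. Among the 12 asexual regulators 6 were higher, abaA with 1.69 ± 0.20 (adjusted p = 1.1e-05) and wetA with 1.00 ± 0.22 (adjusted p = 0.00211) among them, and 3 were lower. The sums over the 8 and the 5 markers given above were also higher in both Oegr 48 h cultures, and AN7539, which is in neither sum, fell by 3.91 ± 0.30 (adjusted p = 1.9e-07). The sum over the 8 is mostly rodA in Oegr 48 h, with a mean of 4241 CPM, so it largely repeats the rise of rodA. Of the 8, ivoB, dewA and AN8209 had lower means in Oegr 48 h than in A1153 48 h, and the others higher ones.

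Genes with no listed role made up the rest of the largest rises. AN2828 had 1355 and 1622 CPM in Oegr 48 h and 207 and 263 CPM in A1153 48 h (log2 change 2.60 ± 0.12, adjusted p = 1.66e-09). AN3304 had 102 and 104 CPM in Oegr 48 h, against 17.4 and 26.7 CPM in A1153 48 h (2.17 ± 0.16, adjusted p = 5.27e-07). AN10573, the neighbour of ivoA, had 390 and 483 CPM in Oegr 48 h and 89.5 and 134 CPM in A1153 48 h (1.91 ± 0.15, adjusted p = 2.44e-07). AN10326 had 1462 and 1269 CPM in Oegr 48 h, against 332 and 383 CPM in A1153 48 h (1.88 ± 0.14, adjusted p = 1.82e-07). In each of these the Oegr cultures were above the A1153 cultures with no overlap.

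The opposite pattern held for AN10431, which had 168 and 208 CPM in Oegr 48 h and 762 and 566 CPM in A1153 48 h and fell by 1.89 ± 0.14 on the log2 scale (adjusted p = 1.06e-07). AN5664 fell by 1.52 ± 0.10 (adjusted p = 3.32e-08), AN0500 by 1.49 ± 0.10 (adjusted p = 4.1e-08), AN3314 by 1.47 ± 0.12 (adjusted p = 4.43e-07) and AN5437 by 1.35 ± 0.13 (adjusted p = 1.63e-06). AN11021 fell by 0.86 ± 0.13 (adjusted p = 0.000119), tpcL by 0.74 ± 0.12 (adjusted p = 0.000273) and ags2 by 0.50 ± 0.08 (adjusted p = 0.000193). All of these were low in drim2.4 54 h by the rule, whichever way they differed between Oegr and A1153.

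Among the autolytic genes, AN4871 rose by 1.06 ± 0.10 (adjusted p = 1.09e-06) and AN1502 had a log2 change of 0.06 ± 0.10 (adjusted p = 0.694). The 3 non-members of that list were all higher. Of the sexual development genes, AN7349 rose by 0.93 ± 0.09 (adjusted p = 1.41e-06) and AN7388 had a log2 change of 0.16 ± 0.13 (adjusted p = 0.374), and over the list of 11 genes 4 were higher and 2 lower. AN8514 of the terrequinone list rose by 0.67 ± 0.16 (adjusted p = 0.00426), as did the 2 other tested genes of its list. xanB rose by 1.09 ± 0.25 (adjusted p = 0.00318), a call that was lost with DESeq2 (adjusted p = 0.0818) and without Oegr 48 h replicate 2 (adjusted p = 0.0674; log2 change 0.59).

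Of the 8 members with the highest CPM in A1153 48 h, AN4871, AN4825 and AN6401 passed this test and 5 did not. AN0567 had a log2 change of 0.11 ± 0.13 (adjusted p = 0.556), AN8483 of -0.11 ± 0.14 (adjusted p = 0.589) and AN8737 of 0.26 ± 0.11 (adjusted p = 0.0803). AN8737 was called with DESeq2 (adjusted p = 0.0253) and without Oegr 17 h replicate 1 or 2 (adjusted p = 0.0411 and 0.0412). AN4825 rose by 0.99 ± 0.13 (adjusted p = 2.83e-05).

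**Figure D4:**
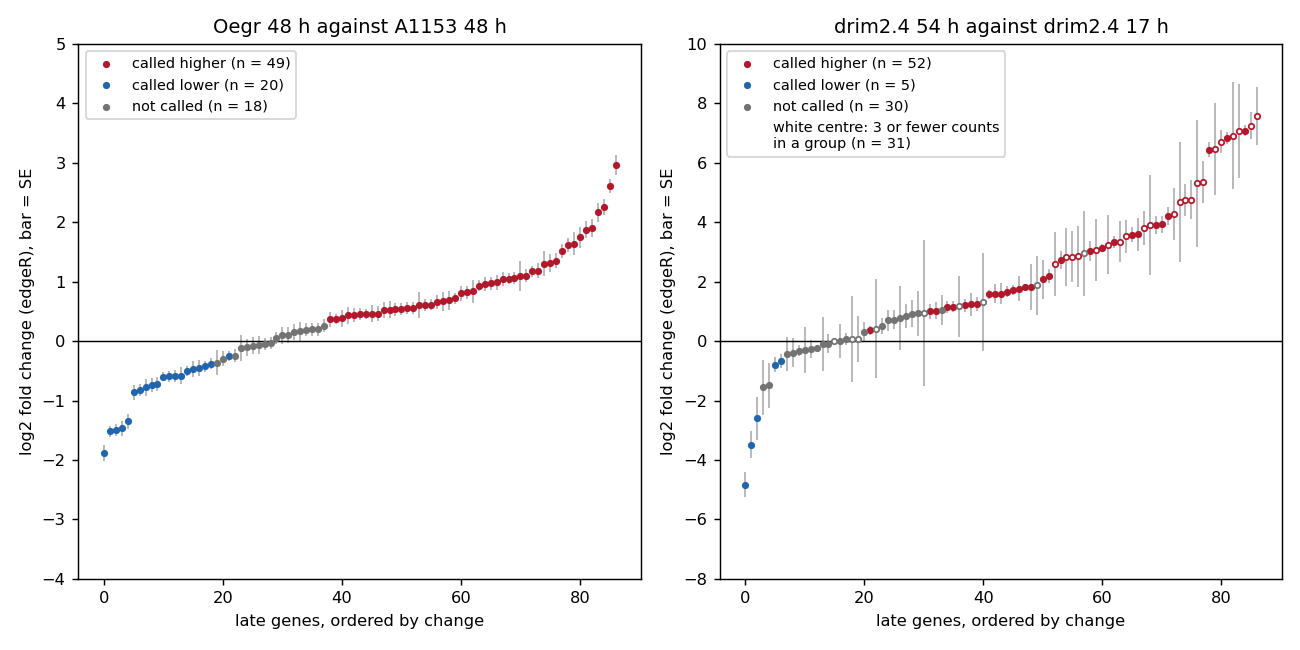
Each point is 1 of the 87 genes, ordered by its log2 fold change, with a bar of 1 SE from edgeR. Left, Oegr 48 h against A1153 48 h; right, drim2.4 54 h against drim2.4 17 h, where a white centre marks the 31 genes with 3 or fewer counts in a group, whose fitted change depends on the prior count. Most called points lie above 0, 49 of them against 20 below on the left and 52 against 5 on the right. On the right both groups entered the rule as low ones, which limited rises and falls alike. A fit of only the drim2.4 groups tested 62 of the 87 genes.

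The deletion-labelled strain at 54 h was compared with itself at 17 h to ask whether the genes moved at all in it. Both means entered the rule as low ones, which limited rises and falls alike, and the shares of all genes below are given as background only. In edgeR's quasi-likelihood test 52 of 87 (59.8%) were higher at 54 h, where 41.3% of all genes tested were, 5 (5.75%) were lower, where 39.3% of all genes were, and 30 were not called. In either direction 80.6% of all genes were called. The median log2 change was 1.60 over the members and 0.06 over all genes tested. A group without a count was then put at 3 counts in all, and AN12089, without a count in either group, was left out, which gave a median of 1.58. In a fit of only these groups 62 members passed the filter, 43 of them higher and 5 lower, and the rest passed only with the other groups in the filter. Counts at 17 h were small, and 22 of the 52 genes had 3 or fewer in drim2.4 17 h. RLE scaling moved the median of all genes to 0.15 and DESeq2 to 0.20, with 56 and 52 members higher.

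The widest rises with enough reads in both groups were those of abundant genes. AN8737 had 166 and 137 CPM in drim2.4 54 h and 0.844 and 0.981 CPM in drim2.4 17 h (log2 change 7.08 ± 0.19, adjusted p = 4.7e-13). AN7388 had 188 and 214 CPM at 54 h, against 0.938 and 1.84 CPM at 17 h (6.83 ± 0.21, adjusted p = 1.48e-12). AN8483 had 74.2 and 105 CPM at 54 h, against 1.31 and 0.552 CPM at 17 h (6.44 ± 0.25, adjusted p = 1.22e-11). These genes rose in the deletion-labelled strain and still ended far below A1153 48 h, at 6.20% of its mean for AN8737, 4.09% for AN7388 and 2.77% for AN8483.

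Some rises started from no or almost no reads. AN2778 had 34 and 20 counts in drim2.4 54 h and none in drim2.4 17 h, at least 15.1-fold higher (adjusted p = 8.49e-06). AN3915 was at least 10.7-fold higher (adjusted p = 0.00159) and AN8802 at least 9.53-fold higher (adjusted p = 0.00417), with no count at 17 h in either. AN0500 had 144 and 116 counts at 54 h and 1 and 0 at 17 h, a ratio of 219 with a 95% counting interval of 38.9 to 8668 (adjusted p = 1.6e-09). The bounds and the interval cover counting error only.

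Of the developmental genes, brlA rose by 1.59 ± 0.32 (adjusted p = 0.00036) and ivoB by 1.16 ± 0.21 (adjusted p = 0.000128) on the log2 scale. AN1837 had 13 and 13 counts at 54 h and 1 and 1 at 17 h, a ratio of 10.9 with a 95% counting interval of 2.74 to 95.03 (adjusted p = 0.0157), and was not called without drim2.4 17 h replicate 2 (adjusted p = 0.115). For rodA the log2 change was 0.93 ± 0.75 (adjusted p = 0.265) and for ivoA -0.43 ± 0.58 (adjusted p = 0.503), while AN6401 had 3 counts in all at 54 h and 2 at 17 h. Over the list of conidium and conidiophore markers, 3 of 8 were higher and 2 lower, and both lower ones were non-members. AN1502 rose by 1.82 ± 0.12 (adjusted p = 2.45e-09), and AN4871 had a log2 change of -0.23 ± 0.10 (adjusted p = 0.0595) and AN7349 of 0.72 ± 0.32 (adjusted p = 0.0655). AN4871 was called lower without Oegr 48 h replicate 1 or 2 (adjusted p = 0.0323 and 0.0318), and AN7349 was called higher with RLE scaling (adjusted p = 0.0363) and with the filter at 5 CPM (adjusted p = 0.0451). AN0567, the most abundant member, had 3.66 and 3.43 CPM in drim2.4 17 h and was not called (log2 change 0.06 ± 0.20, adjusted p = 0.778).

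A small set moved against the rest. AN9042 had 3 and 1 counts in drim2.4 54 h and 38 and 47 in drim2.4 17 h and fell by 4.83 ± 0.41 (adjusted p = 5.87e-08). AN8467 fell by 3.49 ± 0.45 (adjusted p = 5.26e-06) and AN8514 by 2.59 ± 0.72 (adjusted p = 0.00442), and both, like AN9042, were higher in Oegr 48 h than in A1153 48 h. AN4394 fell by 0.80 ± 0.24 (adjusted p = 0.00794) and AN6624 by 0.66 ± 0.23 (adjusted p = 0.0145). The call of AN8514 was lost without drim2.4 17 h replicate 2 (adjusted p = 0.0822), and that of AN4394 without drim2.4 54 h replicate 2 (adjusted p = 0.0792) or drim2.4 17 h replicate 1 (adjusted p = 0.133). ags2 rose by 0.36 ± 0.15 (adjusted p = 0.0436) and was not called without drim2.4 54 h replicate 2, drim2.4 17 h replicate 1 or drim2.4 17 h replicate 2 (adjusted p = 0.239, 0.14 and 0.0993).

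The calls of both comparisons combined in most ways. These combinations were not counted over all genes tested, so nothing is read from the counts about the members. Of all genes tested, 41.1% were called in Oegr 48 h against A1153 48 h and 80.6% in drim2.4 54 h against drim2.4 17 h. Higher in Oegr 48 h than in A1153 48 h and higher in drim2.4 54 h than in drim2.4 17 h were 30 members, and 16 were higher in Oegr 48 h and not called in drim2.4. Lower in Oegr 48 h and higher in drim2.4 54 h were 9, AN5664, AN0500 and AN11021 among them. In 13 the rise in drim2.4 was the single call. AN0567, AN0974, AN1088 and AN8138 were called in neither, and these were named for that after their values were seen.

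At 17 h, with glucose present, the strains were compared to ask whether the genes already differed before the late harvest. In drim2.4 17 h against A1153 17 h, edgeR called 0 of 87 members, where 1.66% of all genes tested were called, and 6 had an unadjusted p under 0.05. DESeq2 also called 0, with 7 at an unadjusted p under 0.05. Both means entered the rule as low ones, and 35 members passed the filter in a fit of only these groups, which called 0 of them. The rest passed only with the other groups in the filter, and nothing is read from the share called. The median member had 0.433 CPM in drim2.4 17 h and 0.411 CPM in A1153 17 h, and 40 members had 10 or fewer counts in drim2.4 17 h and 42 in A1153 17 h, so small differences were not detectable at this depth.

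In Oegr 17 h against A1153 17 h, where the label and the reads of AN7572 agreed in direction, 15 members (17.2%) were higher, against 15.1% of all genes, and 1 was lower, against 14.5% of all genes, with 29.5% called in either direction. The rule chose members that were low in both groups, which limited calls in either direction, and nothing is read from these shares. A fit of only these groups tested 44 members and called 12 higher and 2 lower. The median log2 change was 0.43 over the members, also with groups without a count put at 3 counts, and 0.03 over all genes tested. AN5037 had 5.31 and 6.09 CPM in Oegr 17 h and 0.526 and 0.944 CPM in A1153 17 h (log2 change 2.90 ± 0.28, adjusted p = 2.91e-06). AN1088 had 1.69 and 1.28 CPM in Oegr 17 h, against 0.234 and 0.315 CPM in A1153 17 h (2.34 ± 0.40, adjusted p = 0.000557). AN2609 had 17 and 23 counts in Oegr 17 h and 0 and 1 in A1153 17 h, a ratio of 37.1 with a 95% counting interval of 6.28 to 1500 (adjusted p = 0.000191).

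AN0567 was also higher in Oegr at 17 h, with 5.06 and 5.13 CPM, against 1.46 and 2.91 CPM in A1153 17 h (log2 change 1.17 ± 0.22, adjusted p = 0.00096). The 1 lower gene was AN9042, with 1.93 and 1.67 CPM in Oegr 17 h and 4.44 and 4.41 CPM in A1153 17 h (-1.39 ± 0.22, adjusted p = 0.000269). The same gene was higher in Oegr 48 h, with 591 and 562 CPM, than in A1153 48 h, with 236 and 299 CPM. The count of 15 higher members was 9 without A1153 17 h replicate 1 and 9 without A1153 17 h replicate 2. A test of whether Oegr and A1153 differed by another amount at 48 h than at 17 h called 22 of 87 members, where 28.9% of all genes tested were called.

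Apart from the identifier range left out, gene order was not used by the rule, and members often lie side by side. Of 85 members placed in the reference gene table, 22 (25.9%) had another member as their next gene, where 169 of 9970 placed genes (1.70%) had a member next to them. Within 2 genes the counts were 23 members (27.1%) and 309 genes (3.10%). The 22 formed 11 pairs, and no run held 3 or more. A longer run within AN7804 to AN7828 could not appear, since 18 of its 24 measured genes met the numbers and were left out. The pair of tpcL and AN11013 lies inside that range. Some pairs join named genes to unnamed ones, brlA with AN0974, rodA with AN8802, ivoA with AN10573, ivoB with AN0230 and xanB with AN2607.

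Of the 11 pairs 8 had the same call for both genes. Between Oegr 48 h and A1153 48 h, both genes were higher in 7 pairs and both lower in 1, and no pair had opposite calls. Shared calls were not counted over other neighbouring genes, and 56.3% of all members were called higher, so nothing is read from this agreement. The pair with both lower was tpcL and AN11013. AN8802 had 82.7 and 90.5 CPM in Oegr 48 h and 24.2 and 43.1 CPM in A1153 48 h (log2 change 1.30 ± 0.20, adjusted p = 0.000416), as its neighbour rodA also rose. In the pair of ivoB, AN0230 rose with a log2 change of 1.52 ± 0.12 (adjusted p = 1.76e-07), while ivoB was not called. No annotated intervals overlapped within a pair, and whether the counting used strand is not stated in the labels.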

How the data were processed

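Poly(A) RNA of 12 cultures was sequenced from Nextera libraries, per the labels. Tools listed by the submitters' processing notes are BWA, HTSeq, Trimmomatic, edgeR and limma, with no version. The genome build and strandedness were not given in the sources used here. The authors' deposited counts are whole reads per gene and library. The authors' deposited log2 RPKM gives 1 value for each group, without replicates, and served only to set levels of genes side by side.

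Of 10727 entries, 15 repeats with identical values and 31 upstream open reading frames (0.000199% of counts) were dropped, leaving 10681 genes. CPM is count per column sum. The test was the quasi-likelihood F test of edgeR 4.0.16 under R 4.3.3, 1 fit for the 6 groups with TMM factors and the filterByExpr filter (9670 genes tested, 1011 below the filter, all 87 members tested, 6 residual and 7.73 prior degrees of freedom, biological coefficient of variation 8.2%). Genes were called at Benjamini-Hochberg adjusted p under 0.05 over all genes tested. SE is the log2 change divided by the root of F and may be too small at low counts. Bounds take 3 counts over a group.

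Members and lists were chosen with earlier results of these data known. The 15 lists and AN7572 come from general knowledge; 8 of 131 list entries were dropped because the reference gives another symbol, which emptied the asperthecin list. Named are members on a list or with a symbol, the 8 highest by CPM in A1153 48 h, the 6 largest rises and 6 largest falls at 48 h, the 6 and 4 in drim2.4, up to 4 called in each 17 h comparison, and the genes at the threshold. Symbols and gene order come from the reference table of assembly ASM1142v1. It matched 9970 genes, 779 with a symbol, and 85 members, 7 with a symbol (AN12089 and AN12090 were not matched). Its coordinates gave the gene order and the overlaps of annotated intervals. They are not printed, since the build of the files is not known. Planned searches of promoters and proteins were not run, since no such sequences were used here.

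Alternatives were RLE scaling, DESeq2 1.42.0, no filter, a filter of 5 CPM in 2 libraries, a replicate block, only the 2 groups compared, adjusted p under 0.01, each library left out, and other thresholds of the rule. Replicate numbers were not shown to pair cultures. On simulated data for Oegr 48 h against A1153 48 h (9597 genes), edgeR found 34 of 50 genes with a log2 change of 0.5 and 50 of 50 with 1, 2 or 4, with 12 unchanged genes called.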

Additional observations from a re-analysis of the deposited data

Results flagged for a closer look

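Whether Oegr and A1153 differed by another amount at 48 h than at 17 h was tested with an interaction term in the same edgeR fit. This test was added to those planned. It called 22 of 87 members, where 28.9% of all genes tested were called, so the members' share is close to that of all genes. Among the named genes 18 passed, each with the log2 difference at 48 h minus that at 17 h. It was positive for AN1837 (3.98), ivoA (AN10576, 2.46), AN9042 (2.44), AN2828 (2.04), AN8467 (1.55), AN3931 (1.12) and AN4871 (0.73). It was negative for AN2609 (-4.39), AN5037 (-3.48), AN2778 (-3.18), AN5664 (-2.81), AN1088 (-2.25), AN3314 (-1.74), AN8483 (-1.60), AN5437 (-1.38), AN4394 (-1.16), AN0567 (-1.06) and AN7388 (-0.84).

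AN9042 was lower in Oegr than in A1153 at 17 h and higher at 48 h, and AN5037 was higher at 17 h and lower at 48 h. Counts at 17 h were small for most of these genes, and AN2609 and AN2778 had 1 count in A1153 17 h, so their fitted differences depend on the prior count.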

How the results depend on the processing

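The number of members was 87 under the rule, 154 at 8 times in place of 16, 53 with a minimum of 100 CPM, and 83 to 90 with each library left out. It was 76 with TMM scaling of the CPM and 75 when every culture had to meet the rule. The lower calls in Oegr 17 h against A1153 17 h were 2 with DESeq2 and with only the 2 groups compared, against 1. With each library left out, members called were 40 to 50 higher and 17 to 21 lower in Oegr 48 h against A1153 48 h, 43 to 54 higher and 4 to 7 lower in drim2.4 54 h against drim2.4 17 h, 0 to 1 higher and 0 to 1 lower in drim2.4 17 h against A1153 17 h, and 9 to 16 higher and 1 to 2 lower in Oegr 17 h against A1153 17 h. A lone culture left in a group is then taken to vary like the others. The cause of these shifts was not tested, apart from the fewer libraries.

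With the replicate number as a block, calls were 48 higher and 20 lower, 55 and 5, 0 and 0, and 15 and 1 in the same comparisons. Same-numbered cultures did not deviate together in a way that shows pairing (correlations 0.028, -0.037, 0.101 and 0.05). A fit of only drim2.4 54 h and 17 h tested 62 members. Leaving out AN11013, AN11017 and AN11021, chosen after seeing the data, gave 84 members. For the named genes, 57 results had 1021 alternatives, of which 997 kept the call, 10 lost it, 14 gained it and 0 reversed. The search on 1 promoter strand was not run.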
